A study of Mus musculus with 5 samples.

Results

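The genes described here are the immunoglobulin heavy chain genes of the mouse, read in RNA from 2 sorted populations that are not B cells by their gates. Members were the rows of the count table whose Entrez identifier maps to a heavy chain variable (Ighv), diversity (Ighd) or joining (Ighj) segment or to a heavy constant gene, with at least 10 counts summed over the 5 libraries. This gave 83 members of 142 heavy chain entries, in a table of 27179 genes. They comprised 69 of 120 V segments, 3 of 10 D segments, 4 of 4 J segments and 7 of 8 constant genes; the missing constant gene was Ighe, with 0 counts in every library. The members with the fewest counts were Ighv8-9 and Ighv5-12 with 10 each, and those next below the minimum were Ighv5-9-1 and Ighv10-1 with 8 each.

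Both populations came from wild type C57BL/6 mice, 3 in number. Group 3 innate lymphoid cells (ILC3), lymphocytes without antigen receptors that make IL-22, were sorted as CD45+CD3-RORγtGFP+CD127+ and gave 3 libraries; the GFP reports the lineage factor RORγt. CD4 T cells were sorted as CD45+CD3+CD4+ and gave 2 libraries. The labels give no age and no treatment for either group, and the tissue is named only through the intestine in the study's title. Since replicates are not tied to single mice, every p-value measures only the spread between these libraries, which may be technical.

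A heavy chain gene is assembled in developing B cells, when the RAG enzymes join 1 D segment to 1 J segment and then 1 V segment to the DJ unit. The first transcripts carry the constant gene Ighm; class switching later puts Ighg, Ighe or Igha behind the same VDJ unit. Plasma cells of the gut mostly make IgA, held as dimers by the J chain (Jchain), and each clone keeps its own V, D and J. Transcripts of constant genes can also start at promoters before the switch regions without any V segment. The locus lies on mouse chromosome 12, and the members spanned 113256204 to 116009954 on GRCm38, all 83 on the minus strand, with the constant genes at the low end and the V segments beyond the J cluster.

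The sequences show what the short segments look like and how much of each a read can use to tell it from its neighbours. They were taken from GENCODE M21 gene models on GRCm38, 5′ to 3′ on the coding strand, and all 83 members overlapped such a model. The 4 J segments are given whole, with the letters TGGGG, which begin the conserved tryptophan and glycine of the joining region, in capitals. Ighj1 lies at chr12:113429781-113429833, Ighj2 at chr12:113429468-113429515, Ighj3 at chr12:113429085-113429132 and Ighj4 at chr12:113428514-113428567.
Ighj1: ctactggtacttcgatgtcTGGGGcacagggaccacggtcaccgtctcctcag
Ighj2: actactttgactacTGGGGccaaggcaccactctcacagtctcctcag
Ighj3: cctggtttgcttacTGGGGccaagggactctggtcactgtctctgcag
Ighj4: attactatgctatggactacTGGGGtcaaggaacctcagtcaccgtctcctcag

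All 4 J segments held TGGGG, against 3.76% of protein coding transcripts in their last 48 bases on the same strand and 8.4% on either strand. The sequences shown are 48 to 54 bases long. For Ighj2 the shown transcript is the 48-base one, whereas the merged exons of its GENCODE gene cover 100 bases. Over the 48 bases shown, Ighj2 and Ighj3 differed at 13.

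The 3 D members are also given whole, because their length bears on the counts below: Ighd2-8 at chr12:113450851-113450867, Ighd2-7 at chr12:113456720-113456736 and Ighd1-1 at chr12:113482170-113482192.
Ighd2-8: tctactatggtaactac
Ighd2-7: tctactatggttacgac
Ighd1-1: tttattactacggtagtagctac

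Ighd2-8 and Ighd2-7 differ at 2 of 17 bases. For the V segments on which the results turn, the last 60 bases are given, the end that is joined to D. These are the most counted segments of each library and the segments that differed between the groups. Capitals mark the match to TANTNNTGN, the codons that end in the conserved cysteine before the junction. Of the segments called different, Ighv5-17 lies at chr12:113859149-113859442, Ighv8-12 at chr12:115647945-115648245, Ighv1-72 at chr12:115757984-115758277 and Ighv1-5 at chr12:114513330-114513623. Of the other segments most counted in a library, Ighv1-81 lies at chr12:115920279-115920572, Ighv1-53 at chr12:115158445-115158835, Ighv1-26 at chr12:114788372-114788665, Ighv3-6 at chr12:114288152-114288447, Ighv5-16 at chr12:113838528-113838821, Ighv5-9 at chr12:113661771-113662228 and Ighv5-6 at chr12:113625508-113625801.
Ighv5-17: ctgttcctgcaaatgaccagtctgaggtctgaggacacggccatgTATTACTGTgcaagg
Ighv8-12: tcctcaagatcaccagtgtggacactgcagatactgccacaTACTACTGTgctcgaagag
Ighv1-72: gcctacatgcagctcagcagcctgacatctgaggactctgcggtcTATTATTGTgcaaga
Ighv1-5: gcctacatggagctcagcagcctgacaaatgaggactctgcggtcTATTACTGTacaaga
Ighv1-81: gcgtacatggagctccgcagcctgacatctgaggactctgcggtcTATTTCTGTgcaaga
Ighv1-53: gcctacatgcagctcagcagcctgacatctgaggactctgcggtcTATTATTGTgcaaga
Ighv1-26: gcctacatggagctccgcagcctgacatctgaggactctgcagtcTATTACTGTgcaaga
Ighv3-6: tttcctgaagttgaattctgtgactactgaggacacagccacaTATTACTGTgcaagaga
Ighv5-16: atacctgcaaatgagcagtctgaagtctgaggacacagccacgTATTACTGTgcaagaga
Ighv5-9: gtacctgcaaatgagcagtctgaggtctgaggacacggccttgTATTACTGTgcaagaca
Ighv5-6: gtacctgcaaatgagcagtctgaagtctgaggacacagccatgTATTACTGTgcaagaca

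The letters TANTNNTGN were found in the last 30 bases of 67 of 69 V members (97.1%) on the same strand, against 2.23% of 58797 protein coding transcripts on the same strand and 6.01% on either strand. Ighv1-53 and Ighv1-72 have the same last 60 bases. Ighv5-6 differs from Ighv5-9 and from Ighv5-16 at 3 of 60 bases, and Ighv1-81 from Ighv1-26 at 3. Over the last 290 bases, each V member was compared with all 183 heavy V models. The closest other segment had a median identity of 94.8% (79.3% to 99.3%), and for 3 members, Ighv1-72, Ighv1-23 and Ighv11-2, it differed at 5 bases or fewer. Ighv1-72 differed from Ighv1-62-3 at 2 bases. The handling of reads that fit several V segments is not given in the sources used here. Counts of close pairs are therefore uncertain. Of the 183 models, 63 have no entry of the same name in the count table.

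The libraries held 15123715 to 25956023 counts. Of 12 ILC3 marker genes, 10 were higher in the ILC3 libraries and 0 lower (edgeR quasi-likelihood test, adjusted p under 0.05), and of 10 CD4 T cell genes 5 were lower in ILC3 and 0 higher. Over all genes tested, 6.46% were higher in ILC3 and 7.21% lower. The other ILC3 markers, Ahr and Gata3, were lower in every ILC3 library than in either CD4 T library without passing the test. The receptor gene Cd4 stood at 6.28, 2.82 and 6.08 CPM (counts per 1000000, on library sizes scaled by the trimmed mean of M values, TMM) in ILC3 and at 142 and 90.1 in CD4 T, whereas Cd3e, Cd3g and Trbc2 overlapped between the groups. Trbc1, also a CD4 T cell gene of the list, lay the other way without passing the test (edgeR adjusted p = 0.304). It stood at 360, 338 and 240 CPM in ILC3 and at 35.3 and 237 CPM in CD4 T. Markers of other cells were high in the CD4 T libraries. The 12 plasmacytoid dendritic cell genes summed to 256 to 677 CPM in ILC3 and to 5151 and 4331 in CD4 T, 9 of the 11 tested being lower in ILC3. The 6 myeloid genes summed to 129 to 161 CPM in ILC3 and to 1474 and 2162 in CD4 T, and all 6 were lower in ILC3. Which cells the heavy chain transcripts came from cannot be read from bulk libraries, and fewer cells of a type cannot be told apart from less RNA per cell.

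Heavy chain genes were counted in every library. Their share of all counts was 0.716%, 2.02% and 1.53% for the ILC3 replicates in turn, against 4.69% for CD4 T replicate 1 and 0.968% for CD4 T replicate 2. The means were 1.42% ± 0.659 (SD, n = 3) and 2.83% ± 2.63 (SD, n = 2), and the groups overlapped. CD4 T replicate 1 was the highest of the 5 libraries and CD4 T replicate 2 the second lowest.

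Most of these counts lay in constant genes. Constant genes made up 82.2%, 78.7% and 78.9% of heavy chain counts in ILC3 and 99.7% and 90.3% in CD4 T. V segments made up 15.3%, 19.2% and 19.2% in ILC3, against 0.280% and 8.59% in CD4 T. J segments made up 2.50%, 2.12% and 1.96% in ILC3, against 0.0474% and 1.06% in CD4 T. In all 3 classes the ILC3 libraries stood together and apart from both CD4 T libraries, while the 2 CD4 T libraries were far from each other. The 3 shares make up nearly all heavy chain counts, so higher V and J shares lower the constant share. Of all single genes tested, 55% did not overlap between the groups either. The intervals that counting error gives these shares are narrow: the 95% Wilson interval of the V share in ILC3 replicate 1 was 15.2% to 15.5%, and it covers counting error only.

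The class with the most counts was IgA in every library. Igha, the constant gene of the alpha chain, stood at 5406, 21280 and 14550 CPM in ILC3 and at 36870 and 6818 CPM in CD4 T. The groups overlapped, and the log2 difference, ILC3 over CD4 T, was -0.67 (SE 0.80, edgeR adjusted p = 0.608). Without CD4 T replicate 1 the difference was 1.02, so its sign rested on that library. As a share of constant gene counts, Igha took 98.2%, 99.5% and 98.8% in ILC3, against 98.7% and 95.2% in CD4 T. Divided by exon length, which allows genes to be compared, the Igha share was 97.9%, 99.4% and 98.7% in ILC3, against 98.1% and 93.5% in CD4 T.

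Ighm, the constant gene of the unswitched mu chain, was lower in ILC3. It stood at 36.6, 35.2 and 35.5 CPM in ILC3 and at 338 and 302 CPM in CD4 T. The ILC3 values had a coefficient of variation of 2.07%, and the groups did not overlap. The log2 difference was -3.16 (SE 0.26, edgeR adjusted p = 0.00194), and it was called under each of the 13 alternatives run (adjusted p up to 0.0297). Igha varied with a coefficient of 58.0% over the same 3 ILC3 libraries. Both coefficients rest on the TMM scaling. By library size alone, Ighm stood at 39.1, 26.2 and 29.0 CPM in ILC3, a wider spread. For each 1000 Igha counts there were 6.77, 1.66 and 2.44 Ighm counts in ILC3 and 9.17 and 44.3 in CD4 T. The higher dendritic and myeloid marker levels of the CD4 T libraries move with Ighm, and so do several B cell genes given below; their part in the difference was not tested.

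The gamma genes were low and did not pass the test. Ighg2b, the constant gene of IgG2b, stood at 58.9, 57.5 and 133 CPM in ILC3 and at 52.6 and 24.04 CPM in CD4 T; the groups did not overlap, and the log2 difference was 1.12 (SE 0.53, edgeR adjusted p = 0.198). Ighg2c, the IgG2c gene of the C57BL/6 strain, stood at 0, 13.2 and 0.760 CPM in ILC3 and at 79.4 and 3.09 CPM in CD4 T. Its log2 difference of -3.16 (SE 2.00, edgeR adjusted p = 0.319) became 0.59 without CD4 T replicate 1. Single libraries thus held most of the Ighg2c counts: ILC3 replicate 2 in its group and CD4 T replicate 1 in the other. Ighg1 stood at 0.325, 5.12 and 2.51 CPM in ILC3 and at 9.79 and 3.68 CPM in CD4 T (log2 difference -1.35, SE 1.17, edgeR adjusted p = 0.470). Ighg3 had counts in ILC3 replicate 3 alone of that group (1.17 CPM) and 0.674 and 3.14 CPM in CD4 T. Ighd, the constant gene of IgD, which naive B cells carry beside IgM, stood at 3.82, 0 and 0 CPM in ILC3 and at 0.753 and 4.17 CPM in CD4 T (log2 difference -0.93, SE 2.31, edgeR adjusted p = 0.821; 0.78 without CD4 T replicate 2).

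With Igha set aside, the makeup of the remaining constant counts differed in order between the groups. Ighg2b took 59.1%, 51.8% and 76.9% of them in ILC3 and 10.9% and 7.06% in CD4 T. Ighm took 36.7%, 31.7% and 20.6% in ILC3, against 70.3% and 88.8% in CD4 T. Ighg2b was thus the leading constant gene after Igha in each ILC3 library, and Ighm in each CD4 T library. Divided by exon length this order held, with a smaller lead of Ighg2b in ILC3. As shares of all constant genes, Ighg2b then took 1.062%, 0.2675% and 0.8959% in ILC3, and Ighm 0.9381%, 0.2327% and 0.3405%. In CD4 T, Ighg2b took 0.1394% and 0.3286%, and Ighm 1.273% and 5.867%. Both are shares of the same remainder, so a higher Ighm share lowers the other.

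**Figure D1:**
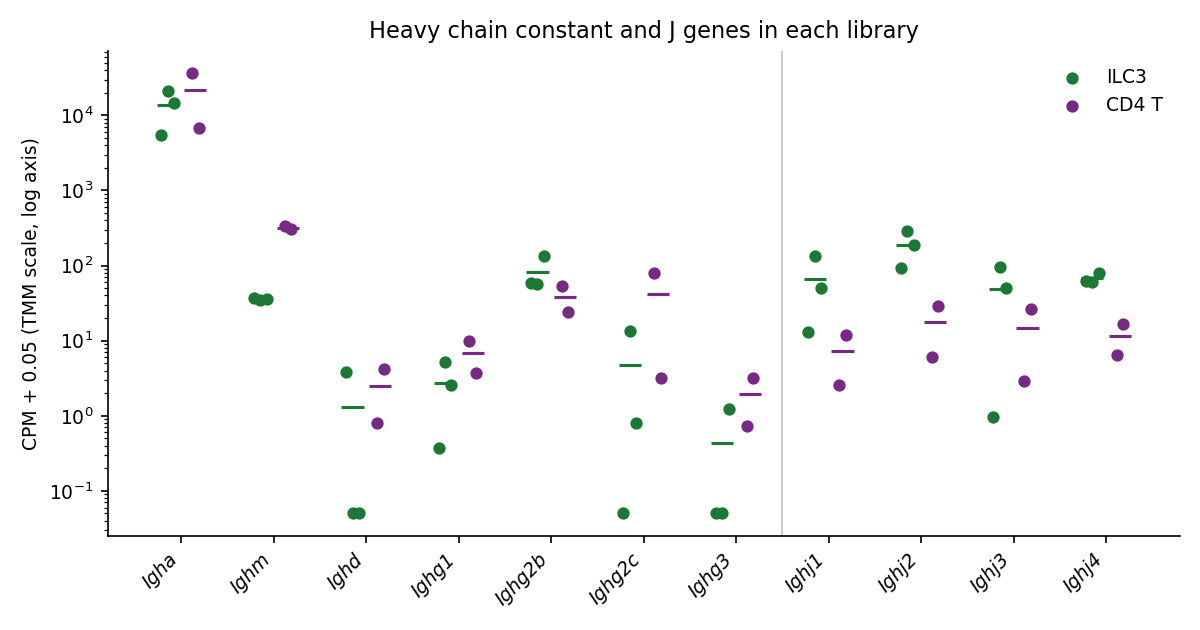
Level of each constant and J gene in every library, in CPM plus 0.05 on a log axis; each point is 1 library and the short line is the group mean. Ighm at 35.2 to 36.6 CPM in the 3 ILC3 libraries lies below both CD4 T libraries (302 and 338 CPM), and Ighj2 and Ighj4 lie above them, while Igha overlaps.

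Of the 4 J segments, 2 were higher in ILC3. Ighj2, the most counted J segment, stood at 91.8, 287 and 187 CPM in ILC3 and at 6.06 and 29.0 CPM in CD4 T (log2 difference 3.43, SE 0.83, edgeR adjusted p = 0.0429). Ighj4 stood at 61.9, 59.7 and 80.1 CPM in ILC3 and at 6.34 and 16.6 CPM in CD4 T (log2 difference 2.55, SE 0.50, edgeR adjusted p = 0.0235). These 2 of 4 J segments passed the test, against 6.46% of all 12747 genes tested that were higher in ILC3. The groups did not overlap for either segment. With the replicate number as a block, Ighj4 missed the threshold (edgeR adjusted p = 0.0637) and Ighj2 passed it (0.0251). Ighj2 missed the threshold without any one of the 3 ILC3 libraries (edgeR adjusted p = 0.065, 0.0955 and 0.0818) or the first CD4 T library (0.115), and Ighj4 without any one of the ILC3 libraries (0.0659, 0.0638 and 0.0639).

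The other two J segments gave values in the same direction without passing. Ighj1 stood at 12.8, 134 and 49.5 CPM in ILC3 and at 2.54 and 11.9 CPM in CD4 T (log2 difference 3.18, SE 1.13, edgeR adjusted p = 0.103); the lowest ILC3 library lay just above the highest CD4 T library. Ighj3 stood at 0.902, 96.1 and 49.98 CPM in ILC3 and at 2.81 and 26.6 CPM in CD4 T (log2 difference 1.74, SE 1.62, edgeR adjusted p = 0.504). ILC3 replicate 1 held almost no Ighj3, and the groups overlapped.

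Shares of J counts were compared between libraries for each segment, not between segments, since the length counted for Ighj2 (48 or 100 bases) is not known. Ighj2 took 54.8%, 49.7% and 51.0% of J counts in ILC3 and 34.2% and 34.5% in CD4 T. Ighj4 took 37.0%, 10.4% and 21.9% in ILC3, against 35.7% and 19.7% in CD4 T. Ighj3 took 0.539%, 16.7% and 13.7% in ILC3, against 15.9% and 31.6% in CD4 T, and Ighj1 took 7.65%, 23.2% and 13.5% against 14.3% and 14.2%. The Ighj2 share was higher in each ILC3 library than in either CD4 T library, and the other J shares overlapped between the groups.

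D segments were at the edge of detection. Ighd2-8 had 17, 1 and 0 counts in ILC3, Ighd2-7 had 0, 24 and 0, and Ighd1-1 had 0, 0 and 27; in CD4 T the only count of the 3 was 1, of Ighd1-1 in replicate 2. Each ILC3 library thus had nearly all its counts in a different D member, and the 0 counts of CD4 T replicate 1 allow up to 0.119 CPM for each. None of the 3 had enough counts to be tested. For Ighd1-1 the ratio of ILC3 to CD4 T was 19.5, with a counting interval of 3.22 to 799. The 17 to 23 bases of these segments are shorter than the J segments, and in a rearranged gene they can be trimmed at both ends.

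V and J counts fell far short of constant counts in CD4 T replicate 1. For each 1000 constant gene counts there were 187, 244 and 243 V counts in ILC3 and 2.81 and 95.1 in CD4 T. J counts followed, with 30.4, 26.9 and 24.9 per 1000 in ILC3, against 0.475 and 11.8 in CD4 T. The ratio of V to J counts was steadier, at 6.14, 9.04 and 9.77 in ILC3, against 5.91 and 8.09 in CD4 T. The constant gene total of CD4 T replicate 1, 37350 CPM, was the highest of the 5 libraries, and its V total, 105 CPM, the lowest; the other totals of V were 1028, 5210 and 3578 CPM for the ILC3 libraries and 681 CPM for CD4 T replicate 2.

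The kappa light chain, which pairs with the heavy chain and is assembled from V and J segments alone, gives a reference within the same libraries. For each 1000 counts of the kappa constant gene Igkc there were 673, 758 and 731 kappa V counts in ILC3 and 496 and 749 in CD4 T. Kappa J counts were 58.6, 44.1 and 61.8 per 1000 in ILC3, against 41.5 and 59.1 in CD4 T. Both kappa ratios were also lowest in CD4 T replicate 1, but lay much nearer to those of the other libraries than its heavy chain ratios did. In the same library there were 1.17 Igkc counts per heavy constant count, against 5.42, 8.26 and 7.64 in ILC3 and 4.96 in CD4 T replicate 2. Jchain counts per 1000 Igha counts were 930 there, against 3307, 4719 and 5651 in ILC3 and 3055 in CD4 T replicate 2. All these ratios set counts of 1 library against each other, so they do not depend on the scaling, and no test was made of them.

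**Figure D2:**
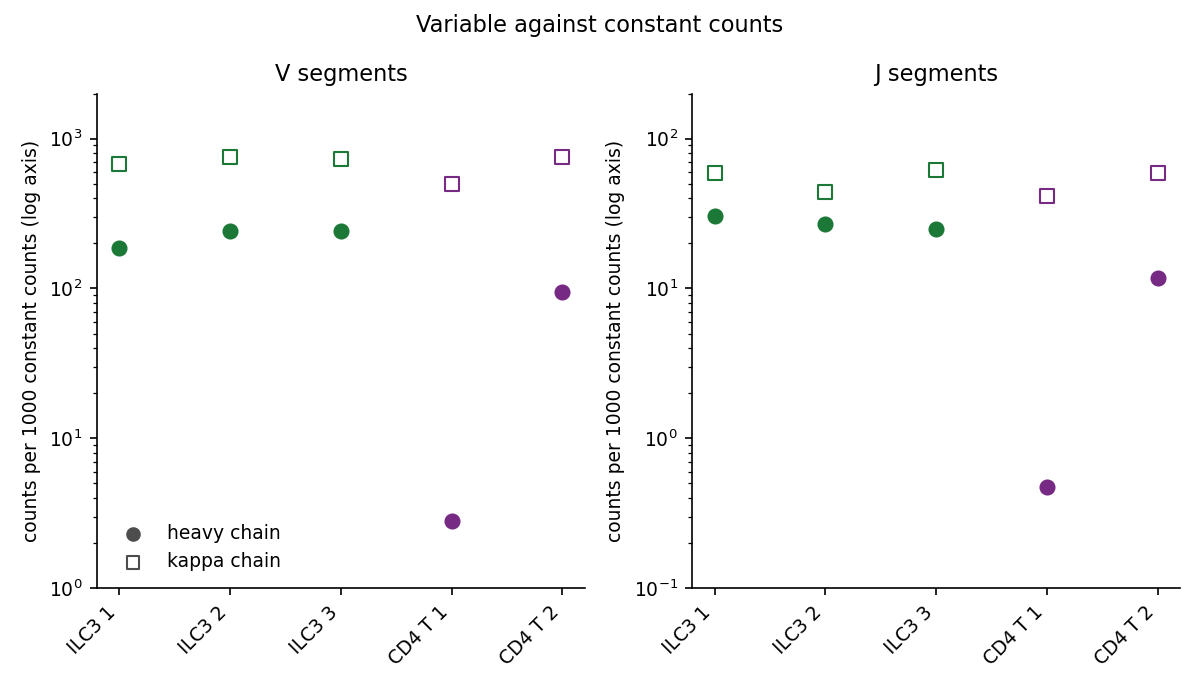
V counts (left) and J counts (right) for each 1000 constant gene counts in each library, on log axes; filled circles are the heavy chain and open squares the kappa chain. The heavy chain points of CD4 T replicate 1 (2.81 and 0.475) lie far below those of the other libraries, and its kappa points do not.

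V segments were counted along the whole length of the V cluster. The number of V members with at least 1 count was 48, 54 and 50 in ILC3, against 40 and 43 in CD4 T, and 26, 42 and 44 in ILC3, against 25 and 29 in CD4 T had at least 10. The totals behind these numbers differ widely, from 2649 V counts in CD4 T replicate 1 to 81329 in ILC3 replicate 2, and the numbers with at least 10 counts overlapped between the groups. In total, 24 V members were counted in every library, and 8 of these with at least 10 counts each: Ighv1-22, Ighv1-26, Ighv1-53, Ighv1-81, Ighv2-2, Ighv3-6, Ighv5-9 and Ighv5-17. Another 19 had no count in CD4 T and 1, Ighv1-5, had none in ILC3; with far more V counts in ILC3, a member could pass the minimum through that group alone, so these numbers are no comparison of the groups.

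By family, Ighv1 and Ighv5 held most V counts. Ighv1, the largest family with 39 members of 60 entries, took 60.7%, 40.5% and 31.8% of V counts in ILC3 and 47.6% and 39.4% in CD4 T. Ighv5, with 7 members of 10 entries near the J end of the cluster, took 18.7%, 37.2% and 33.6% in ILC3, against 34.8% and 37.8% in CD4 T. Both families overlapped between the groups. Ighv8, with 6 members of 10, took 16.2%, 1.19% and 6.94% in ILC3, against 0% and 0.573% in CD4 T, the lowest ILC3 value above the highest in CD4 T. Ighv3 took 0.161%, 5.14% and 4.24% in ILC3, against 10.8% and 7.67% in CD4 T, again without overlap. Of all single genes tested, 55% did not overlap either, and a higher share of 1 family lowers the others. In CD4 T, Ighv3-6 held 282 of 286 and 957 of 964 Ighv3 counts. The fitted level of Ighv3-6 was not lower in ILC3 (log2 difference 1.46, edgeR adjusted p = 0.550). Ighv9 ranged from 0.0386% in ILC3 replicate 1 to 10.3% in ILC3 replicate 3, and Ighv10 reached 5.69% in ILC3 replicate 3 and at most 0.787% in the others. No entry of the families Ighv7, Ighv12, Ighv15 and Ighv16 reached 10 counts.

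**Figure D3:**
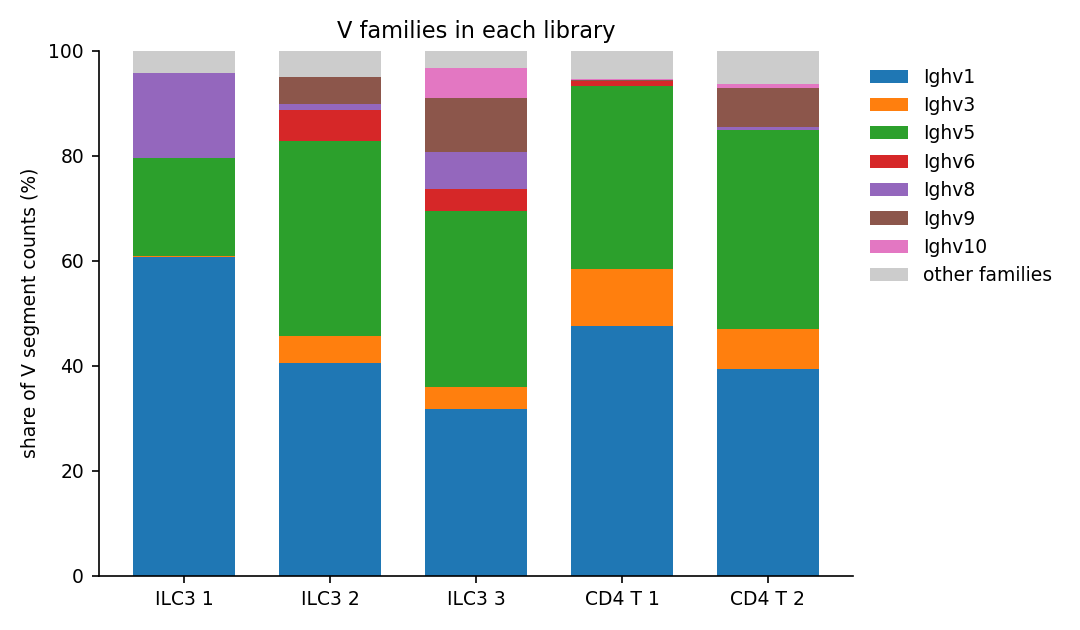
Share of V segment counts taken by each V family in the 5 libraries, in percent, stacked to 100. Ighv1 and Ighv5 are the largest blocks in each library, and Ighv8 reaches 16.2% in ILC3 replicate 1 and is 0% in CD4 T replicate 1.

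The first 3 V segments held 29.8% to 50.1% of the V counts of a library, and some led in more than 1 library. In ILC3 replicate 1, Ighv5-17 took 18.5% of V counts, Ighv1-81 17.0% and Ighv1-53 14.0%. In ILC3 replicate 2, Ighv5-16 took 26.3%, Ighv1-53 12.3% and Ighv1-81 11.5%. ILC3 replicate 3 was led by Ighv5-9 with 11.8%, Ighv5-6 with 11.4% and Ighv1-26 with 6.67%. Ighv1-81 and Ighv1-53 were among the first 3 of both ILC3 replicates 1 and 2, and no segment was among the first 3 of all 3 ILC3 libraries. CD4 T replicate 1 was led by Ighv5-16 with 16.4%, Ighv1-26 with 14.6% and Ighv3-6 with 10.6%. In CD4 T replicate 2, Ighv5-9 took 26.2%, Ighv1-81 12.6% and Ighv5-16 9.78%. The largest share averaged 18.9% ± 7.27 (SD, n = 3) in ILC3 and 21.3% ± 6.88 (SD, n = 2) in CD4 T, a difference smaller than the spread.

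The evenness of V use varied as much within ILC3 as between the groups. The inverse Simpson index, the number of equally used segments that would give the same concentration, was 8.52, 8.73 and 17.1 in ILC3, against 12.01 and 8.60 in CD4 T. To reach 50% of V counts it took 4, 3 and 7 segments in ILC3 and 5 and 4 in CD4 T. To reach 90% it took 9, 16 and 19 in ILC3, against 17 and 14 in CD4 T. ILC3 replicate 3 was the highest by all 3 measures, while the lowest was ILC3 replicate 1 by the index and at 90% and ILC3 replicate 2 at 50%. The median V count lay 1729, 870 and 870 kb from the J cluster in ILC3 and 858 and 711 kb in CD4 T, so that ILC3 replicate 1 lay farthest out.

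**Figure D4:**
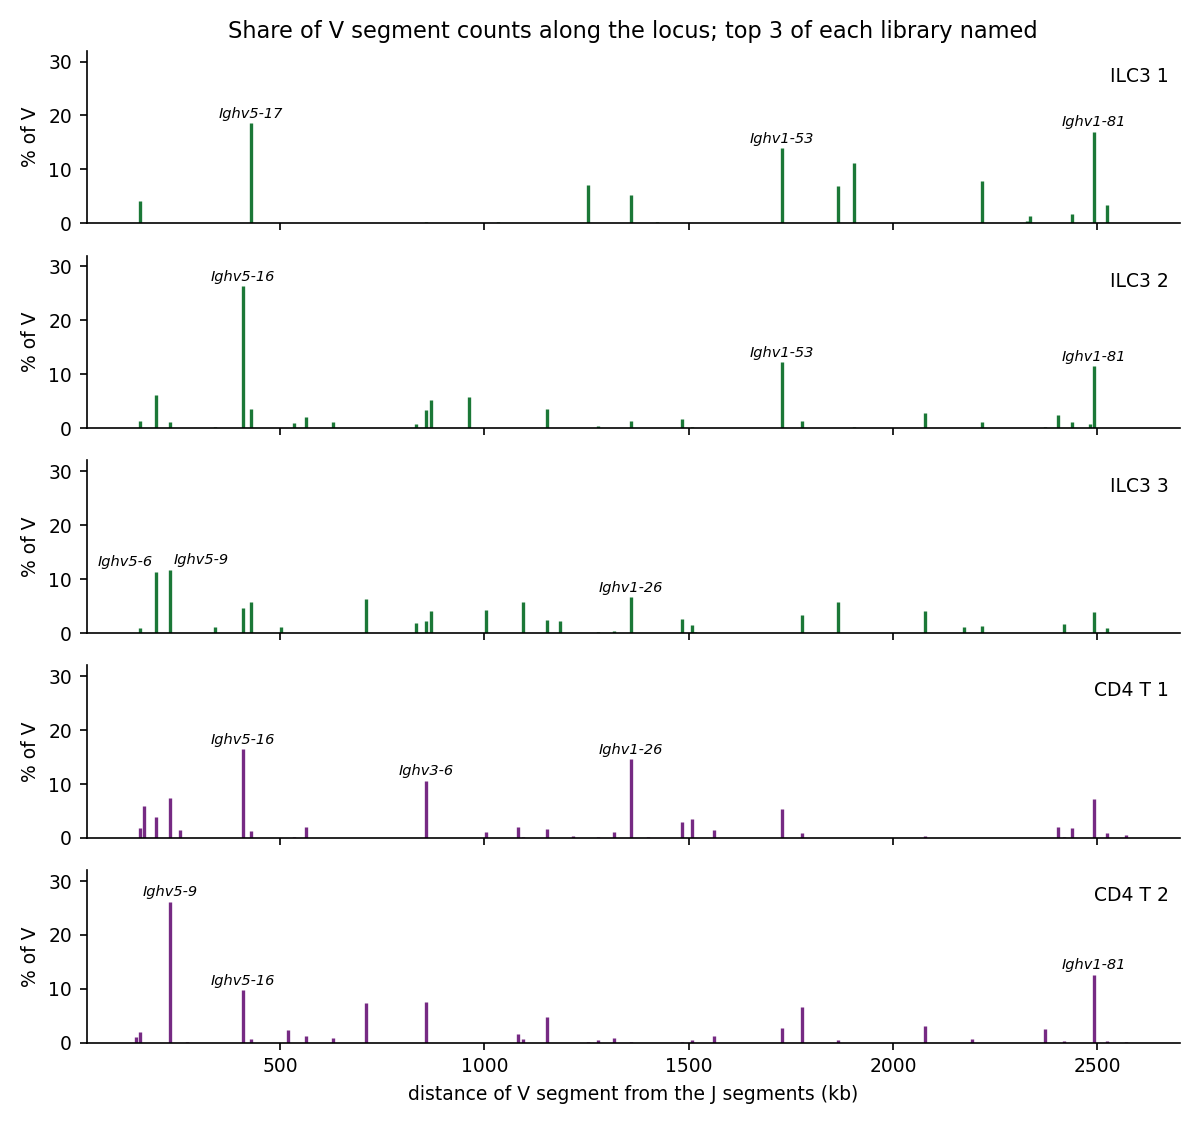
Share of V segment counts (percent) of each V member against its distance from the J segments in kb, 1 panel a library; the 3 most counted segments of each library are named. Tall bars stand at different places in the libraries, with Ighv5-16 at 26.3% in ILC3 replicate 2 and Ighv5-9 at 26.2% in CD4 T replicate 2.

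Likeness in V use covered overlapping ranges within and across the groups. Over the 69 V members, Pearson's r of the V shares was 0.311, 0.179 and 0.298 for the 3 pairs of ILC3 libraries and 0.512 for the CD4 T pair. Across the groups it ran from 0.137, between ILC3 replicate 1 and CD4 T replicate 2, to 0.671, between ILC3 replicate 2 and CD4 T replicate 1. The share of V use that 2 libraries had in common was 24.4% to 39.2% within ILC3, 47.1% within CD4 T and 19.9% to 52.2% across the groups. These are descriptions over segments, which are not independent replicates, and all values of a pair rest on 2 libraries.

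Many V members were nearly private to 1 library. For 26 of 69, at least 90% of the summed CPM lay in a single library: 6 in ILC3 replicate 1, 9 in ILC3 replicate 2, 9 in ILC3 replicate 3 and 1 in each CD4 T library. The V totals behind these numbers were 1028, 5210 and 3578 CPM in ILC3 and 105 and 681 CPM in CD4 T. A member could also pass the minimum through ILC3 alone, so these numbers are no comparison of the groups. Ighv6-3 stood at 0.397, 302 and 0.0585 CPM in ILC3 and at 0 and 0.325 CPM in CD4 T. Ighv10-3 stood at 0.0722, 0 and 204 CPM in ILC3 and at 0.159 and 5.36 CPM in CD4 T. Ighv14-2 stood at 0.0361, 112 and 0.526 CPM in ILC3 and at 2.10 and 8.07 CPM in CD4 T. Each of these 3, the most counted member of its family, was high in 1 ILC3 library and near the floor in the other two. Ighv4-1, the single member of its family, stood at 16.03 CPM in CD4 T replicate 2 and at 0.128 CPM or less elsewhere, and Ighv2-5 had 40 counts in CD4 T replicate 1 and 1 count elsewhere. Ighv11-2 and Ighv13-2 had counts in ILC3 replicate 2 alone, 18 and 26.

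Among the V segments, 3 were higher in ILC3 and 1 lower. Of the 56 heavy chain members with enough counts to be tested (45 V, 4 J and 7 constant), 5 were higher in ILC3 and 2 lower, which is 7 of 56 against 13.7% of all genes tested. By direction the background was 6.46% higher and 7.21% lower. The median log2 difference was 3.61 over the V segments tested, 2.87 over the J segments, -1.35 over the constant genes and -0.10 over all genes. Of the 45 V segments tested, 7 had 0 counts in a whole group. A V segment could pass the minimum and the filter through ILC3 alone, so the V median and the number of V calls are no comparison of the groups. Groups did not overlap for 13 members, 11 higher in ILC3 and 2 lower, against 55% of all genes tested, 25.5% higher and 29.6% lower. The higher count fell from 5 to 3 when either ILC3 replicate 2 or CD4 T replicate 1 was left out. The lower count fell from 2 to 1 without any single ILC3 library or without CD4 T replicate 2. It was 14 higher with DESeq2's Wald test, and 26 higher and 3 lower with no filter on low counts. The 27 members not tested, 24 V and 3 D, passed the minimum of 10 but not the filter on low counts.

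On the TMM scale, Ighv5-17 was the V segment with the steadiest high level in ILC3. It stood at 190, 181 and 204 CPM in ILC3 and at 1.35 and 4.49 CPM in CD4 T. The log2 difference was 6.04 (SE 0.64, edgeR adjusted p = 0.00422), and it was called under each of the 13 alternatives (adjusted p up to 0.0201). Its closest segment, Ighv5-9-1, differed at 29 of 290 bases and had 8 counts in all. The V segments together also stood higher, at 1028, 5210 and 3578 CPM in ILC3 and at 105 and 681 CPM in CD4 T. Ighv8-12 passed the minimum and the filter through ILC3 alone, so its p-values below add no support. It stood at 79.8, 61.9 and 44.4 CPM in ILC3 and had 0 counts in both CD4 T libraries. This made it at least 949-fold higher in ILC3, with 3 counts over the CD4 T group as the floor (edgeR adjusted p = 0.00175, up to 0.0115 over the 13 alternatives).

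The remaining V calls had few counts. Both segments passed the minimum and the filter through a single group, so their p-values add no support. Ighv1-72 stood at 3.86, 6.08 and 2.10 CPM in ILC3 with 0 counts in CD4 T, at least 57.4-fold higher (edgeR adjusted p = 0.0325). Ighv1-5 had 0 counts in ILC3 and stood at 2.18 and 11.1 CPM in CD4 T, at least 120-fold lower in ILC3 (edgeR adjusted p = 0.0376). Ighv1-72 missed the threshold without any single ILC3 library (edgeR adjusted p = 0.0823, 0.0893 and 0.0558) or without CD4 T replicate 1 (0.0881). Ighv1-5 missed it without any single library of the 5 (edgeR adjusted p = 0.0627 to 0.14). Ighv1-72 shares its last 60 bases with Ighv1-53, which was far more counted in ILC3 replicates 1 and 2.

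Of the segments among the first 3 of a library, Ighv5-17 alone passed the test. Ighv1-81 stood at 175, 600 and 140 CPM in ILC3 and at 7.49 and 85.9 CPM in CD4 T; the groups did not overlap (log2 difference 2.71, SE 1.14, edgeR adjusted p = 0.151). Ighv1-53 stood at 144, 640 and 1.05 CPM in ILC3 and at 5.59 and 18.9 CPM in CD4 T (log2 difference 4.42, SE 2.09, edgeR adjusted p = 0.193). Ighv5-16 stood at 0.144, 1370 and 166 CPM in ILC3 and at 17.2 and 66.6 CPM in CD4 T (edgeR adjusted p = 0.355), so that its lowest and its highest level were both in ILC3. Ighv5-9 was at 0.577, 63.1 and 421 CPM in ILC3 and at 7.69 and 178 CPM in CD4 T (log2 difference 0.80, edgeR adjusted p = 0.825), a sign that turned to -1.55 without ILC3 replicate 3 and to -0.14 without CD4 T replicate 1. Ighv5-6 was at 0.722, 323 and 407 CPM in ILC3 and at 4.16 and 0.163 CPM in CD4 T (edgeR adjusted p = 0.119). These 3 family 5 segments were thus high in ILC3 replicate 2 or 3 and below 1 CPM in ILC3 replicate 1, where Ighv5-17 held 5275 of the 5320 family 5 counts.

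Ighv1-26 and Ighv2-2 did not overlap between the groups and came close to the threshold. Ighv1-26 stood at 53.1, 67.9 and 239 CPM in ILC3 and at 15.3 and 1.46 CPM in CD4 T (log2 difference 3.83, SE 1.18, edgeR adjusted p = 0.0725). Ighv2-2 stood at 43.2, 73.5 and 31.5 CPM in ILC3 and at 2.02 and 13.0 CPM in CD4 T (log2 difference 2.72, SE 0.84, edgeR adjusted p = 0.0733). Ighv3-6 overlapped, at 1.66, 178 and 80.7 CPM in ILC3, against 11.2 and 51.8 CPM in CD4 T (edgeR adjusted p = 0.550). Ighv9-4 had 6679 counts in ILC3, all in replicates 2 and 3, and 2 in CD4 T, which is 2415 times as many at equal depth, and counting error puts that between 668 and 19942 times (edgeR adjusted p = 0.0716). Ighv8-8 stood at 70.5, 0.320 and 204 CPM in ILC3 and at 0 and 3.79 CPM in CD4 T (edgeR adjusted p = 0.182).

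On the TMM scale, the spread among the 3 ILC3 libraries separated a few members from the rest. Of 37 members with a mean of at least 20 CPM in ILC3, 5 had a coefficient of variation under 50%: Ighm with 2.07%, Ighv5-17 with 5.90%, Ighj4 with 16.6%, Ighv8-12 with 28.6% and Ighv2-2 with 43.9%. The median over the 37 was 97.7%. These coefficients rest on the TMM scaling. By library size alone, Ighv5-17 stood at 203, 135 and 167 CPM in ILC3, a wider spread. Of these 5 members, Ighv2-2 alone did not pass the test.

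**Figure D5:**
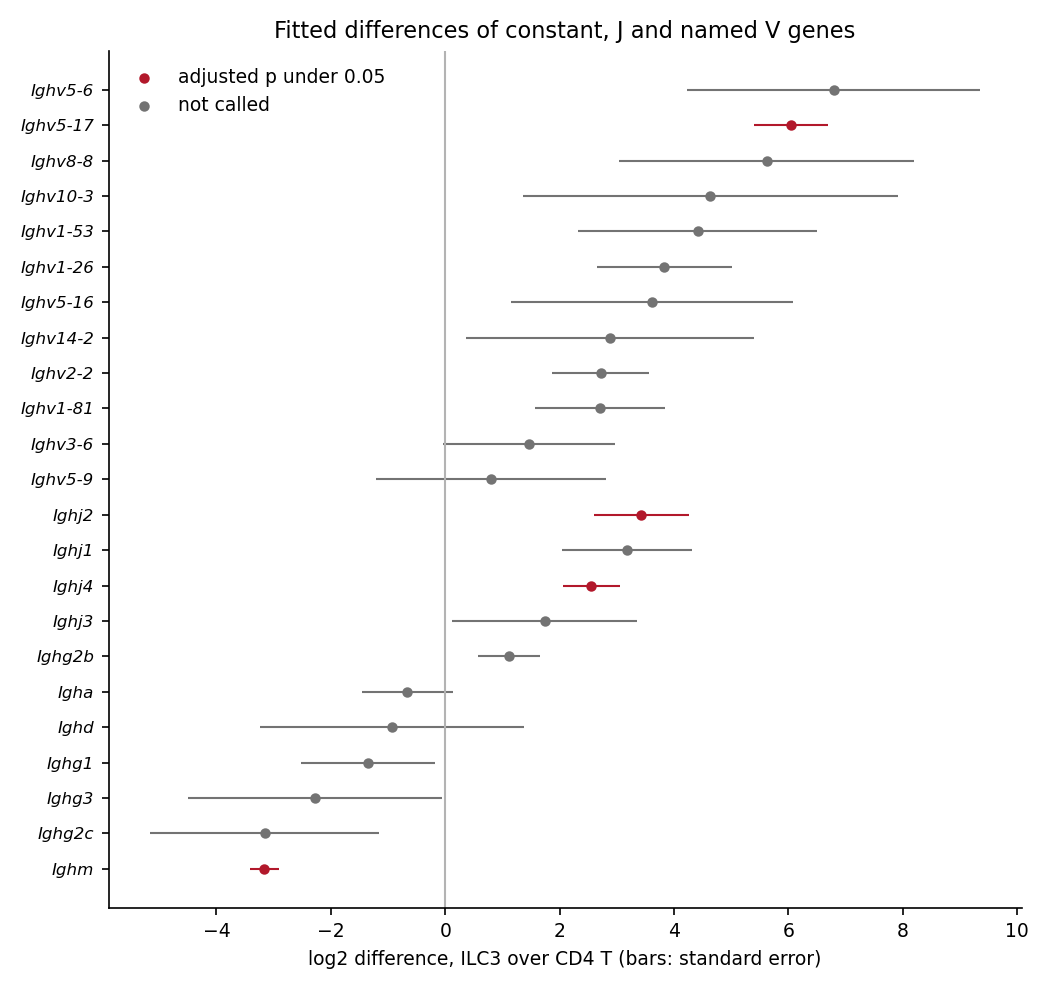
Fitted log2 difference, ILC3 over CD4 T, of constant, J and named V genes with more than 3 counts in each group; bars are the standard error and red points have an edgeR adjusted p under 0.05. Ighm at -3.16 is the single constant gene in red, and Ighv5-17, Ighj2 and Ighj4 lie in red to the right of 0.

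Genes of a plasma cell list were counted beside the heavy chain genes. Bulk libraries do not show which cells these transcripts came from. Of 17 plasma cell genes, all tested, 1 was higher in ILC3 and 3 were lower, with a median log2 difference of -0.16. Over all genes tested, 6.46% were higher and 7.21% lower. Jchain stood at 17880, 100400 and 82250 CPM in ILC3 and at 34270 and 20830 CPM in CD4 T (log2 difference 1.28, SE 0.73, edgeR adjusted p = 0.271), so that in ILC3 its order over the libraries was that of Igha. Sec11c, a subunit of the signal peptidase, rose (log2 difference 1.20, edgeR adjusted p = 0.0457). Irf4 and Prdm1, transcription factors of plasma cell differentiation, and the disulfide isomerase Txndc5 were lower in ILC3, by log2 differences of -3.17, -2.19 and -1.86 (edgeR adjusted p = 0.0167, 0.0457 and 0.0427). Each of these 4 calls was lost when some single library was left out. Without ILC3 replicates 1, 2 or 3 in turn, the edgeR adjusted p was 0.101, 0.154 and 0.14 for Sec11c, 0.0791, 0.0753 and 0.0937 for Prdm1 and 0.095, 0.101 and 0.0737 for Txndc5. With CD4 T replicate 1 left out it was 0.213 for Prdm1, 0.189 for Txndc5 and 0.0743 for Irf4, and with ILC3 replicate 2 left out 0.0654 for Irf4. Scaling by library size alone also ended the call of Sec11c (0.68, edgeR adjusted p = 0.21). The summed level of this list was 22960, 106800 and 88630 CPM in ILC3, against 38430 and 24550 CPM in CD4 T, and Jchain made up most of it. No gene of the list was at 0 in a whole group. Xbp1, also of the list, stood at 793, 901 and 785 CPM in ILC3 and at 458 and 378.5 CPM in CD4 T. It was not called (log2 difference 0.98, edgeR adjusted p = 0.0643). Without overlap, 2 of the 17 genes were higher in ILC3 and 7 lower, against 25.5% and 29.6% of all genes tested.

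Of 16 B cell genes, 13 were tested, with a median log2 difference of -1.48. Against 6.46% higher and 7.21% lower over all genes tested, 0 were higher in ILC3 and 4 were lower. These were Fcrla (-2.90, edgeR adjusted p = 0.00831), Spib (-8.60, edgeR adjusted p = 0.00952), Blnk (-3.57, edgeR adjusted p = 0.0169) and Bank1 (-2.51, edgeR adjusted p = 0.0379). Blnk, an adaptor of B cell receptor signalling, stood at 7.97, 27.0 and 34.3 CPM in ILC3 and at 347 and 201 CPM in CD4 T. Spib and Blnk are also known from plasmacytoid dendritic cells. Pax5, a defining transcription factor of B cells, had 0 counts in all 5 libraries. Cd79b, a signalling chain of the B cell receptor, stood at 66.1, 140 and 120 CPM in ILC3 and at 46.4 and 80.7 CPM in CD4 T (edgeR adjusted p = 0.258). Cd79a, also of the list, stood at 52.8, 134 and 99.3 CPM in ILC3 and at 23.5 and 47.9 CPM in CD4 T. It was not called (log2 difference 1.42, edgeR adjusted p = 0.106). Without overlap, 1 tested gene of the list was higher in ILC3 and 6 lower, against 25.5% and 29.6% of all genes tested. The list summed to 262 to 473 CPM in ILC3 and to 824 and 581 CPM in CD4 T. Without Blnk and Spib, a choice made after seeing the data, it summed to 254, 445 and 367 CPM in ILC3, against 300.4 and 318 CPM in CD4 T, and the groups overlapped. Bank1 missed the threshold without any single library of the 5 (edgeR adjusted p = 0.0709 to 0.116), and Blnk without ILC3 replicate 2 (0.0597) or CD4 T replicate 1 (0.0752).

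The RAG enzymes that join heavy chain segments were at or near 0 counts. Rag2 had 0 counts in all 5 libraries, and Rag1 had 0 in ILC3 and 1 and 2 counts in CD4 T. Of 10 genes of recombination and class switching, 7 were tested, of which 1 was higher in ILC3 and 2 lower. The shares over all genes tested were 6.46% and 7.21%. Dntt, the polymerase that adds bases at V, D and J junctions, had 0 counts in ILC3 and stood at 64.9 and 39.96 CPM in CD4 T, at least 1094-fold lower in ILC3 (edgeR adjusted p = 0.00351). Dclre1c, the nuclease Artemis that opens hairpin ends, was lower in ILC3 (log2 difference -6.59, edgeR adjusted p = 0.00593), and Xrcc4, a factor of end joining, was higher by 1.86 (edgeR adjusted p = 0.0487). Xrcc4 missed the threshold without any one ILC3 library (edgeR adjusted p = 0.116, 0.0927 and 0.0977), with CD4 T replicate 1 left out (0.113) and with library size alone as the scaling (0.124). The surrogate light chain genes of pre-B cells (Vpreb1, Vpreb2 and Igll1) had 0 to 3 counts a library. The dendritic cell marker Siglech, at 745 and 814 CPM in CD4 T and at 0.234 CPM or less in ILC3, moves with Dntt and Dclre1c, and its part in their difference was not tested.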

How the data were processed

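RNA of sorted ILC3 (3 libraries) and CD4 T cells (2 libraries) was made into RNA-seq libraries with a low input SMARTer kit, per the labels' protocols. Reads were processed with CASAVA 1.8.2 and STAR 2.3.0 on mm10, per the submitters' processing notes. The deposited table holds raw counts per Entrez gene, made by the authors (counting tool, annotation and use of strand: not given in the sources used here). Identifiers were matched to symbols through RefSeq on GRCm38, the build that mm10 names (25275 of 27179 matched; the 1904 unmatched took 0.121% to 0.422% of a library's counts), and sequences to GENCODE M21.

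The counts were tested with edgeR 4.0.16 in R 4.3.3 (filterByExpr, TMM, quasi-likelihood F test, all 5 libraries, Benjamini-Hochberg over the 12747 genes that passed the filter; called at an adjusted p under 0.05). CPM are on TMM-scaled library sizes (factors 0.744 to 1.25). Libraries held 15123715 to 25956023 counts, and a count of 0 allows up to 3 counts, 0.108 to 0.192 CPM. Shares, ratios and sums over members were described without a test. Intervals of shares are 95% Wilson intervals and those of count ratios come from exact binomial 95% intervals; both cover counting error only. The steps were run on simulated counts with large set changes and a fixed dispersion for all genes. That run checks the code and not the calls of members as variable as these. Alternatives used DESeq2 1.42.0 (size factors, Wald test), limma 3.58.1 (voom), library size alone, other filters, factors without immunoglobulin genes, a replicate block and each library left out.

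Members and gene lists were chosen with earlier results of these data known. Genes named were all constant genes, the 3 V segments most counted in each library, called members, the most counted member of each V family and of the D and J segments, up to 4 called genes of each list (otherwise its 2 highest), the highest gene of each list in each group, and the members next to the minimum. Other genes named for their values or as list members were chosen after these were seen. Values of some single genes of these lists are not reported here.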

Additional observations from a re-analysis of the deposited data

How the results depend on the processing

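The number of heavy chain members higher in ILC3 was 5, and it became 26 with no filter on low counts, 14 with DESeq2's Wald test, 8 with the replicate block and 3 to 7 when each library was left out. The number lower was 2, and it became 1 with the replicate block and 1 to 2 with a library left out. Ighm, Ighv5-17 and Ighv8-12 were called under all 13 alternatives. Ighv8-12 had 0 counts in CD4 T and passed the filter through ILC3 alone, so its calls add no support. Scaling by library size alone moved the median log2 difference of all genes from -0.10 to -0.60 and changed no call among the members, and neither did DESeq2's size factors or leaving immunoglobulin genes out of the factors.

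Replicate numbers are not said to pair the libraries. Same-numbered libraries deviated from their group means together with r = -0.0235 and -0.0338. With 2 CD4 T libraries, whose deviations mirror each other, these values cannot decide whether libraries were paired. Under the replicate block 4 of the 7 calls remained and 5 members were added. The calls lost were those of Ighj4, Ighv1-5 and Ighv1-72 (edgeR adjusted p = 0.0637, 0.116 and 0.123). Changes of sign were looked for only in genes named by the selection given above, not in the other members tested. Among the named genes, log2 differences that changed sign under the block were those of Ighv10-3 (-4.62), Ighv3-6 (-0.43), Ighv5-16 (-0.81) and Ighv5-9 (-2.54). With limma-voom, those of Ighv10-3 (-0.24), Ighv14-2 (-2.03), Ighv3-6 (-0.058), Ighv5-16 (-0.69) and Ighv5-9 (-0.96) were negative. Without CD4 T replicate 1 the values were 1.02 for Igha, 0.59 for Ighg2c and -0.14 for Ighv5-9. Without CD4 T replicate 2 they were 0.25 for Cd3g and 0.78 for Ighd. Without ILC3 replicate 2 the value of Ighv14-2 was -4.19, and without ILC3 replicate 3 that of Ighv5-9 was -1.55. Over the libraries left out in turn, the values ran from -1.98 to 0.25 for Cd3g, -1.41 to 1.02 for Igha, -8.56 to 0.78 for Ighd, -6.85 to 0.59 for Ighg2c, -4.19 to 4.16 for Ighv14-2 and -1.55 to 4.40 for Ighv5-9. None of the reversed values was past the threshold, and the cause was not tested. With immunoglobulin genes left out of the denominator, the heavy chain share averaged 2.07% in ILC3 and 3.53% in CD4 T. Under the replicate block the calls of Sec11c (adjusted p = 0.348), Prdm1 (0.14), Txndc5 (0.129), Bank1 (0.144), Fcrla (0.0516) and Xrcc4 (0.144) were also lost with edgeR. With 2 CD4 T libraries, a difference between groups has little replication, and D segments are at the limit of the depth.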
